A study of Homo sapiens with 6 samples.

Results

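The genes described here encode the extracellular and cell-surface metalloproteinases of the MMP, ADAM and ADAMTS families, the ADAMTS-like proteins and the TIMP inhibitors. They were taken by symbol, as every listed gene named MMP, ADAM, ADAMTS or ADAMTSL with a number, or TIMP1 to TIMP4. The rule found 74 of 47470 listed genes, which were 24 MMP, 22 ADAM, 19 ADAMTS, 5 ADAMTSL and 4 TIMP genes.

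RNA was measured in HEK293T cells, wild-type cells of human embryonic kidney origin that express the large T antigen of SV40. The 3 untreated libraries came from cells given nothing, and the 3 VPA-treated libraries from cells of the same line kept in 1 mM valproic acid (VPA), a histone deacetylase inhibitor, for 1 day. The study used this treatment as a model of histone deacetylase inhibition, and the question asked here was which metalloproteinases and inhibitors differed in RNA level after it. The labels do not say that the libraries of a group came from separate cultures, so each p-value measures the spread between these libraries, which may be technical.

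The 6 libraries held between 18622267 and 18828495 counts on genes. The 8 markers of the HEK293 line were all detected, with summed normalized counts (counts scaled by TMM to the mean library size) of 18469 to 19125 in untreated and 20975 to 22158 in VPA-treated libraries. Single markers moved more than the sum. Of the 8, 6 rose, PAX2, NES and KRT8 the most, by 2.26, 2.01 and 1.37 on the log2 scale, while VIM and CDH2 fell, at -0.27 and -0.37. Of 4 fibroblast markers, DCN, LUM and PDGFRA rose and THY1 had 2 counts in all, and the list summed to between 58.8 and 65.2 in untreated and between 351 and 365 in VPA-treated libraries. The endothelial markers summed to at most 6.71 normalized counts and the leukocyte markers to at most 37.8 in any library. These are bulk libraries, in which fewer cells of a type and less RNA per cell cannot be told apart.

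MMPs cleave matrix proteins and other extracellular proteins, and they are made as zymogens that are activated by removal of a propeptide. ADAMs are mostly membrane proteins that release the ectodomains of growth factors, adhesion molecules and Notch receptors, while ADAMTS enzymes are secreted and process proteoglycans, procollagens, fibrillins and von Willebrand factor. The proteases bind a catalytic zinc ion through histidines of a shared motif, and TIMPs block them by occupying the active site.

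That motif, a histidine and a glutamate followed by a histidine after any 2 residues and a further histidine after any 5, was searched for in the translated coding sequence of each member. It was found in 23 of 24 MMP genes, in 12 of 22 ADAM genes and in 19 of 19 ADAMTS genes, and in none of the 5 ADAMTSL or 4 TIMP genes. MMP23A, ADAM5 and ADAM6 had no coding transcript to search, and 8 ADAM genes had one without the motif. The coding bases of the motif are shown 5′ to 3′ for proteases whose RNA is described below, since they mark which genes encode a metal-binding active site; the 3 histidine codons are in capitals.
MMP2: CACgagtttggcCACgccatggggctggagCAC
MMP15: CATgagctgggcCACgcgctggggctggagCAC
MMP17: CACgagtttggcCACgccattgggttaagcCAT
MMP25: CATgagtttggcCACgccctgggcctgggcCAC
ADAM10: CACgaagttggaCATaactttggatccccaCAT
ADAM17: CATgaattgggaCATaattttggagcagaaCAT
ADAM19: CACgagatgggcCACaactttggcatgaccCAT
ADAMTS1: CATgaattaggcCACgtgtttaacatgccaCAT
ADAMTS7: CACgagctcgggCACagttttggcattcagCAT
ADAMTS14: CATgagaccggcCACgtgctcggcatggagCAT
In the GRCh38 genome (GENCODE 44) these stretches lie in coding exons of the plus strand at chr16:55491827-55491859 for MMP2, chr16:58040563-58040595 for MMP15, chr12:131841659-131841691 for MMP17 and chr16:3057068-3057100 for MMP25, and of the minus strand at chr2:9510078-9510110 for ADAM17 and chr5:157505734-157505766 for ADAM19. The motifs of ADAM10 (chr15:58627881-58633225, minus), ADAMTS1 (chr21:26841143-26841867, minus), ADAMTS7 (chr15:78788359-78789705, minus) and ADAMTS14 (chr10:70732343-70733900, plus) are split by an intron, so their coordinates span more than the bases shown. The first histidine was residue 403 of MMP2, 345 of ADAM19, 401 of ADAMTS1 and 388 of ADAMTS7.

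Most of the tested members were higher after VPA. Of the 74 genes, 13 had no count in any library, 20 were under the filter on low counts, which asks for about 10 counts in at least 3 libraries, and 41 were tested. At an adjusted p under 0.05 (edgeR quasi-likelihood F test, Benjamini-Hochberg over 15298 genes), 30 were higher and 1 was lower, where 32.9% of all tested genes were higher and 30.0% lower. With the study's further threshold of a 2-fold change, 15 members were up-regulated and 1 was down-regulated, where 12.0% and 0.503% of all tested genes passed. The median log2 fold change, VPA-treated over untreated, was 0.77 (1.70-fold) over the 41 members and 0.01 over all tested genes. All VPA-treated libraries lay above all untreated ones for 31 members, where 34.8% of all tested genes did so, and below them for 2, where 31.0% did so. Member genes together took 0.0594% to 0.0595% of the counts in untreated and 0.1% to 0.102% in VPA-treated libraries.

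Low genes passed the fold threshold more often than abundant genes in these libraries as a whole, so the members were also read within classes of expression. Under 50 normalized counts, 6 of 14 members (42.9%) were up-regulated against 29.4% of all tested genes. Between 50 and 500, these were 8 of 17 members (47.1%) against 16.5%. At 500 or more, 1 of 10 members (10%) was up-regulated against 1.44%, and 7 of 10 (70%) were higher against 19.4%, while no member of that class was lower. Of the 41 tested members, 35 had at least 10 counts in every untreated library. Of these 35, 25 were higher, 10 of them up-regulated, and 1 was lower, with a median log2 fold change of 0.69. All VPA-treated libraries lay above all untreated ones for 25 of the 35. The shares of all tested genes under this condition were not taken, here or for the lists below. Counts under it therefore have no like background. The remaining 6 tested members, ADAM12, ADAMTS4, ADAMTS8, ADAMTS14, ADAMTSL1 and MMP24, entered the test through their VPA-treated libraries. The 5 up-regulated among them add no support to the count. All 6 lie in the class under 50 normalized counts, where ADAMTSL4 is the only other up-regulated member. The 29.4% of all tested genes in that class also includes genes that entered in this way. Whether the 42.9% of members is an excess over it was not tested.

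**Figure D1:**
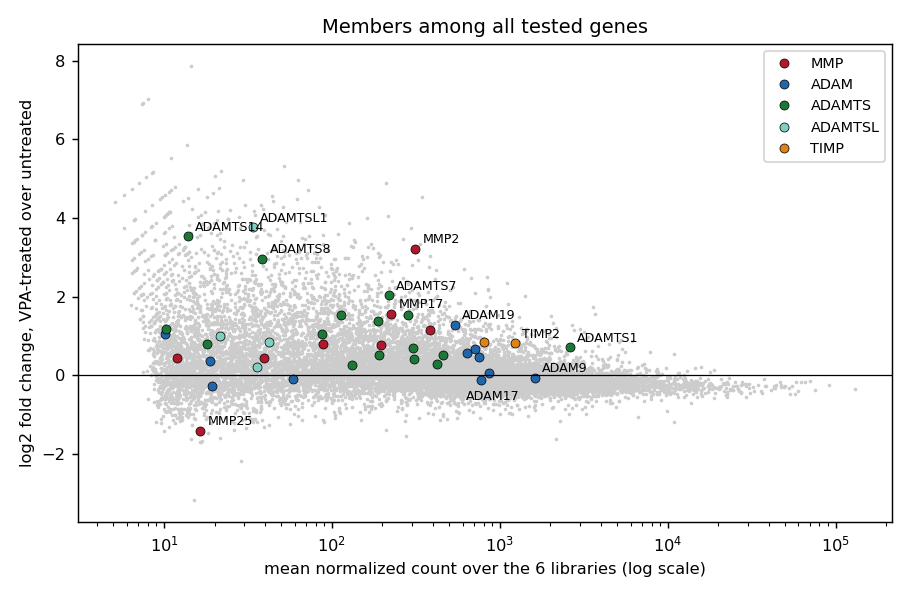
Log2 fold change, VPA-treated over untreated, against the mean TMM-normalized count over the 6 libraries (log scale) for the 15298 tested genes (grey) and the 41 tested members (coloured by family). Members of 500 or more normalized counts lie between ADAM17 at -0.12 and ADAM19 at 1.28, while MMP25 at -1.41 is the only member past the lower fold threshold.

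Among the MMPs, a gelatinase and membrane-anchored enzymes made up most of the RNA, and the collagenases and matrilysins were near or at 0. Of 24 MMP genes, 8 were tested, with a median log2 fold change of 0.77. Of the 8, 5 were higher, 1 was lower and 2 passed in neither direction, where 32.9% of all tested genes were higher and 30.0% lower. MMP1, MMP3, MMP7, MMP8, MMP20, MMP26 and MMP27 had no count. MMP9, the other gelatinase beside MMP2, had 1, 2 and 4 counts in untreated and 5, 7 and 4 in VPA-treated libraries and was not tested. MMP28 had 1, 0 and 0 counts against 2, 8 and 7. MMP10, MMP12, MMP13, MMP19, MMP21, MMP23A and MMP23B were also under the filter; MMP23A and MMP23B are close copies whose reads may not be told apart.

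MMP2 (chr16:55478830-55506691, plus strand), which digests denatured collagen and basement membrane collagen, had 56.9, 51.3 and 74.5 normalized counts without VPA and 567, 545 and 583 with it. The lowest treated library was far above the highest untreated library. The means were 60.9 ± 12.1 and 565 ± 19.0 (SD, n = 3 each). This was a log2 fold change of 3.21 (SE 0.10, adjusted p = 1.31e-16), or 9.26-fold. MMP2 was the member with the most counts among those that changed more than 4-fold, and leaving out any library gave a log2 fold change of 3.10 to 3.37. Fibroblast markers rose in the same libraries, as given above, and their part in the MMP2 result was not tested.

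The 6 membrane-type MMPs, which are held at the cell surface by a transmembrane segment or a lipid anchor, did not move as one. MMP17 (chr12:131828393-131851771, plus strand), a lipid-anchored enzyme, had 116, 118 and 107 normalized counts in untreated and 357, 355 and 299 in VPA-treated libraries, a log2 fold change of 1.57 (SE 0.098, adjusted p = 9.13e-12). MMP15 (chr16:58025754-58046901, plus strand), a transmembrane enzyme, had 224, 231 and 257 against 563, 533 and 486, a log2 fold change of 1.15 (SE 0.078, adjusted p = 3.18e-11). In both genes every treated library exceeded every untreated one. MMP16 was higher by 0.77 on the log2 scale without passing the fold threshold (adjusted p = 1.54e-07). MMP14, which activates the MMP2 zymogen at the cell surface together with TIMP2, had 30.0, 38.7 and 31.5 normalized counts against 51.7, 47.2 and 36.4, and its groups overlapped. Its log2 fold change of 0.43 (95% interval 0.05 to 0.81) missed the threshold after adjustment (adjusted p = 0.0558). MMP24 had 8 to 17 counts per library and a difference of 0.44 (95% interval -0.18 to 1.07). MMP24OS on the opposite strand covers 18.4% of the MMP24 exons and had 393 to 460 counts per library. The strand setting of the counting is not given in the sources used here, so reads of this pair may not be told apart.

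MMP25 (chr16:3046561-3060726, plus strand), a lipid-anchored enzyme known from leukocytes, was the only tested member that passed the test as lower. Its normalized counts were 22.8, 28.3 and 21.0 in untreated and 8.62, 10.6 and 7.66 in VPA-treated libraries, with no overlap, a log2 fold change of -1.41 (SE 0.29, adjusted p = 0.000216). It rests on 8 to 11 counts per treated library. MMP25-AS1 on the opposite strand covers 30.6% of its exons and had 43 to 75 counts per library, and since the strand setting of the counting is not given in the sources used here, reads of the pair may not be told apart. Of the 4 leukocyte markers, CD68 was lower (log2 fold change -1.21), while PTPRC, LYZ and CD3E had 12, 5 and 1 counts in all, PTPRC with 0 in every untreated library, and their part in the MMP25 result was not tested. MMP11, a secreted enzyme of the stromelysin group, was higher by 0.78 (adjusted p = 3.35e-05).

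**Figure D2:**
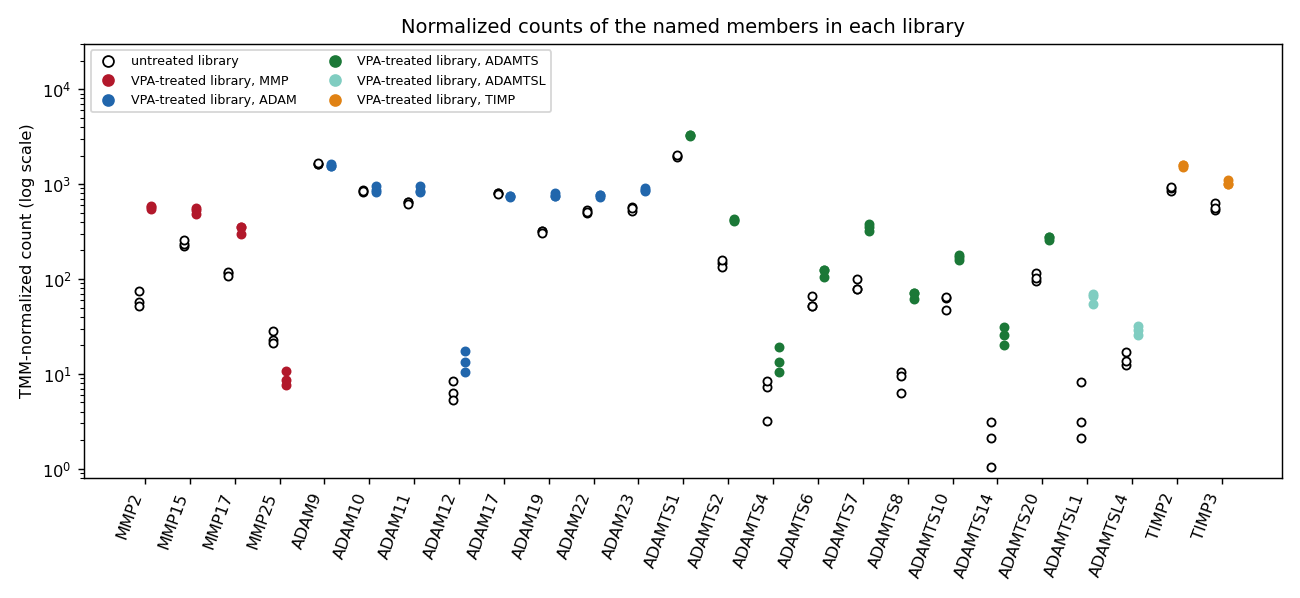
TMM-normalized counts (log scale) of the members named by a rule on call and level, with open points for the 3 untreated libraries and filled points, coloured by family, for the 3 VPA-treated libraries. MMP2, ADAMTS8, ADAMTS14 and ADAMTSL1 are separated most widely, all treated points lie below the untreated ones for MMP25 and, narrowly, ADAM17, and those of ADAM9 and ADAM10 overlap.

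Of 22 ADAM genes, 11 were tested, 5 were higher, 2 of them up-regulated, and none was lower, where 32.9% of all tested genes were higher, 12.0% up-regulated and 30.0% lower. The sheddases ADAM9, ADAM10 and ADAM17, which release the ectodomains of many membrane proteins, had the most counts among ADAMs with the zinc motif in untreated cells, and none of them passed the test. ADAM9 had 1643, 1640 and 1661 normalized counts in untreated and 1569, 1535 and 1645 in VPA-treated libraries, a log2 fold change of -0.06 (95% interval -0.15 to 0.03, adjusted p = 0.264) whose sign turns under scaling by the upper quartile, library totals or ribosomal protein genes, and which passes as higher under the last, at 0.21 (adjusted p = 0.000461). ADAM10, the main Notch sheddase, had 830, 861 and 844 against 824, 945 and 870, a difference of 0.06 (95% interval -0.05 to 0.17, adjusted p = 0.385). It passes as higher under scaling by library totals, at 0.19 (adjusted p = 0.00684), and by ribosomal protein genes, at 0.33 (adjusted p = 2.89e-05). ADAM17, which releases tumour necrosis factor and EGF receptor ligands, had 799, 811 and 789 against 726, 744 and 746. The ADAM17 groups did not overlap, but the log2 fold change of -0.12 (95% interval -0.22 to -0.01) missed the threshold (adjusted p = 0.0592). It passes as lower with DESeq2 size factors (adjusted p = 0.0372) and the replicate block (0.0265), and its sign turns by library totals, at 0.02, and by ribosomal protein genes, at 0.16, where it passes as higher (0.0138). Whether the 3 sheddases moved at all therefore depends on the scaling.

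ADAM19 (chr5:157477304-157575775, minus strand), an ADAM of the meltrin group with a role in heart development, rose from 320, 318 and 307 normalized counts to 811, 748 and 742. The treated libraries lay together, well above the untreated ones, and the log2 fold change was 1.28 (SE 0.064, adjusted p = 1.84e-13). ADAM12, another meltrin, went from 6.21, 8.37 and 5.25 to 13.4, 17.3 and 10.5 (log2 fold change 1.04, SE 0.37, adjusted p = 0.0170). That call rests on few counts, since adjusted p was 0.146 with DESeq2, 0.0690 without the untreated library 3 and 0.0971 without the VPA-treated library 2, over a range of 0.00321 to 0.146. Without the untreated library 1 its log2 fold change was 0.99, under the fold threshold.

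ADAM11, ADAM22 and ADAM23 lack the zinc motif and are known as neuronal surface proteins that bind LGI1 or integrins rather than as proteases. ADAM22 had 493, 532 and 512 normalized counts against 769, 739 and 772 (log2 fold change 0.57, SE 0.057, adjusted p = 1.96e-08). ADAM23 had 522, 570 and 555 against 852, 867 and 909 (0.67, adjusted p = 1.30e-09), and ADAM11 had 648, 647 and 618 against 953, 819 and 847 (0.45, adjusted p = 1.38e-06). All 3 were higher without reaching a 2-fold change, and their groups did not overlap. Over the 8 tested ADAM genes with the motif, 2 were higher and 6 passed in neither direction, and whether the genes with and without the motif differ was not tested. ADAM8, ADAM15 and ADAM20 had fewer counts and log2 fold changes of -0.10, 0.37 and -0.27 (adjusted p = 0.625, 0.270 and 0.384). ADAM2, ADAM5, ADAM6 and ADAM7 had no count, and ADAM18, ADAM21, ADAM28, ADAM29, ADAM30, ADAM32 and ADAM33 were under the filter.

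**Figure D3:**
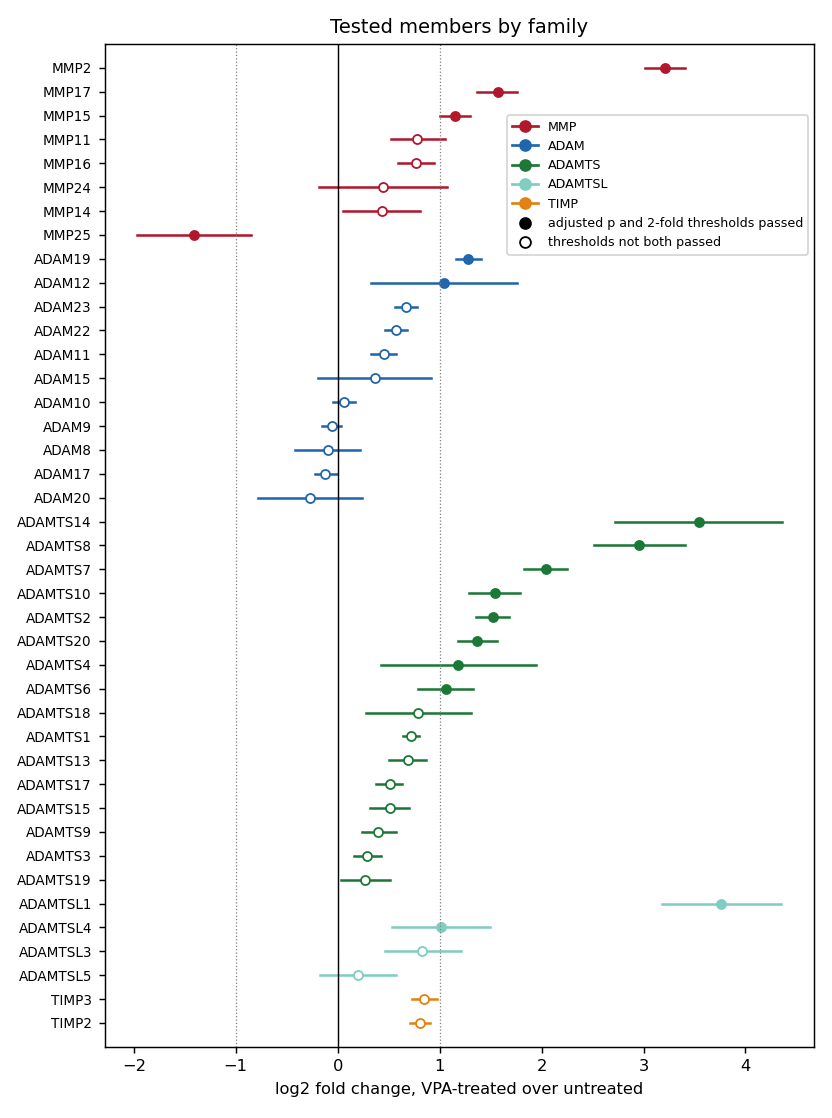
Log2 fold change, VPA-treated over untreated, of the 41 tested members with 95% intervals, grouped by family. Filled points passed the adjusted p and 2-fold thresholds, dotted lines mark a 2-fold change in either direction, and 15 of the 16 filled points lie on the right.

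The ADAMTS family had the most up-regulated members. Of 19 genes, 16 were tested, with a median log2 fold change of 0.93. Of the 16, 15 were higher, 8 of them up-regulated, and none was lower. Over all tested genes, 32.9% were higher, 12.0% up-regulated and 30.0% lower. Of the 8, ADAMTS4, ADAMTS8 and ADAMTS14 are among those that entered the test through their VPA-treated libraries, and the median of 0.93 includes them. ADAMTS19 passed in neither direction (0.27, adjusted p = 0.0644). ADAMTS5, ADAMTS12 and ADAMTS16 were under the filter, ADAMTS12 with 0, 0 and 3 counts in untreated and 5, 12 and 9 in VPA-treated libraries.

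The proteoglycanases of the family, which cut aggrecan and versican, were higher in 6 of 6 tested genes. Of these 6, 3 were up-regulated, beside 12.0% of all tested genes, where 32.9% were higher. ADAMTS1 (chr21:26835755-26845409, minus strand) had the most counts of all members, with 1958, 1939 and 2037 normalized counts in untreated and 3264, 3259 and 3225 in VPA-treated libraries. The groups were far apart relative to their spread, at a log2 fold change of 0.72 (SE 0.041, adjusted p = 1.80e-12). ADAMTS8 (chr11:130404923-130428609, minus strand) went from 6.21, 10.5 and 9.45 to 71.9, 71.3 and 62.2, a log2 fold change of 2.96 (SE 0.23, adjusted p = 3.06e-10). ADAMTS20 went from 116, 96.3 and 102 to 260, 275 and 279 (1.37, adjusted p = 7.42e-11). ADAMTS4, known as an aggrecanase, went from 7.25, 8.37 and 3.15 to 10.5, 19.3 and 13.4 (1.18, SE 0.39, adjusted p = 0.0121). The ADAMTS4 call was lost with DESeq2 (adjusted p = 0.0989), without the untreated library 3 (0.0755) and without the VPA-treated library 2 (0.0890), over a range of 0.0026 to 0.0989. ADAMTS9 and ADAMTS15 were higher by 0.40 and 0.51.

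The procollagen N-proteinases, which trim the amino-terminal propeptide of fibrillar collagens, were higher in 3 of 3, beside 32.9% of all tested genes. ADAMTS2 (chr5:179110853-179345461, minus strand) had 146, 134 and 157 normalized counts against 424, 409 and 422, a log2 fold change of 1.52 (SE 0.082, adjusted p = 7.62e-13). ADAMTS14 (chr10:70672506-70762441, plus strand) had 3, 2 and 1 raw counts in untreated and 27, 32 and 21 in VPA-treated libraries, a fitted log2 fold change of 3.54 (95% interval 2.72 to 4.36, adjusted p = 2.21e-07). The fitted change was 2.75 with a larger prior count of 2. ADAMTS3, which also processes the growth factor VEGFC, was higher by 0.29 (adjusted p = 0.000779).

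ADAMTS7 (chr15:78759206-78811464, minus strand), which cleaves cartilage oligomeric matrix protein, went from 78.7, 77.5 and 101 normalized counts to 384, 349 and 324. Each treated library was above 3 times the highest untreated one, and the log2 fold change was 2.04 (SE 0.11, adjusted p = 4.96e-13). ADAMTS6 and ADAMTS10, which act on fibrillin microfibrils, rose by 1.06 (SE 0.14, adjusted p = 9.05e-07) and 1.54 (SE 0.13, adjusted p = 8.19e-10). ADAMTS6 no longer reached the fold threshold without the untreated library 2 or 3, at 0.99 and 0.98. ADAMTS13, the protease of von Willebrand factor, was higher by 0.69, ADAMTS17 by 0.51 and ADAMTS18 by 0.79.

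The ADAMTS-like proteins share the ancillary domains of the family but not the protease domain, and they bind matrix. ADAMTSL1 (chr9:17906633-18910950, plus strand) went from 8, 3 and 2 raw counts to 57, 68 and 72, a fitted log2 fold change of 3.76 (SE 0.30, adjusted p = 4.80e-10). Without the untreated library 1 the value was 4.52, so its size depends on that library while the call does not. ADAMTSL4, which binds fibrillin, went from 12.4, 13.6 and 16.8 normalized counts to 28.7, 31.8 and 25.9 (1.01, SE 0.25, adjusted p = 0.00120). It stood at the fold threshold and was at 0.91 to 0.99 in 7 alternatives, among them those without the untreated library 1 or 2 or the VPA-treated library 2. ADAMTSL3 was higher by 0.83 (adjusted p = 0.000650), ADAMTSL5 had a difference of 0.20 (adjusted p = 0.377) and ADAMTSL2 had no count.

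The inhibitors were carried by TIMP2 and TIMP3, and both rose by less than 2-fold. TIMP2 (chr17:78852977-78925387, minus strand), which inhibits most MMPs and takes part in MMP2 activation, had 841, 902 and 943 normalized counts in untreated and 1593, 1587 and 1530 in VPA-treated libraries. The means were 895 ± 51.4 and 1570 ± 34.8 (SD, n = 3 each), at a log2 fold change of 0.81 (95% interval 0.71 to 0.91, adjusted p = 8.92e-12). TIMP3 (chr22:32801705-32863041, plus strand), which binds the matrix and also inhibits ADAM17 and ADAMTS proteases, had 538, 626 and 560 against 1005, 1098 and 1002, a log2 fold change of 0.85 (95% interval 0.73 to 0.97, adjusted p = 1.06e-10). Neither gene's groups overlapped. TIMP3 lies within the span of SYN3, which had 604 counts in all against 4887 for TIMP3. TIMP4 had 2, 0 and 1 counts against 4, 2 and 4 and was not tested. TIMP1 was listed at 0, as were all 1437 listed genes of chromosome X, so its level was not assessed.

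To set proteases beside inhibitors, levels were taken as reads per kilobase of exon and per size-scaled library (RPKM) and summed. This assumes the GENCODE 44 exon lengths, merged over all transcripts of a gene, and says nothing of protein. The merged lengths were 17704, 15979 and 15964 bases for ADAM9, ADAM10 and ADAM17, against 7303 for ADAMTS1 and 6209 for TIMP2. A longer length gives a lower RPKM, so the sums, ratios and shares below depend on it, and other lengths were not tried. The TIMP family sum, carried by TIMP2 and TIMP3, went from 14.4 ± 0.755 RPKM to 25.7 ± 0.769 (SD, n = 3 each), or 1.78-fold. MMPs went from 7.51 ± 0.231 to 21.1 ± 0.932 (2.80-fold), ADAMTSs from 29.2 ± 0.540 to 50 ± 0.747 (1.71-fold) and ADAMs from 27.7 ± 0.397 to 36.8 ± 0.782 (1.33-fold). The MMP sum moved most and the ADAM sum least.

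The MMP over TIMP ratio was 0.541, 0.493 and 0.530 in untreated and 0.859, 0.798 and 0.804 in VPA-treated libraries, with all treated values above. The ADAM over TIMP ratio went the other way, from 2.03, 1.87 and 1.87 to 1.47, 1.36 and 1.47. ADAM genes without the motif, which include ADAM11, ADAM22 and ADAM23, made up 13.7 ± 0.314 RPKM of the untreated ADAM sum and 20 ± 0.752 after VPA (SD, n = 3 each). With them left out, the ADAM over TIMP ratio was 1.03, 0.940 and 0.951 against 0.659, 0.633 and 0.672. The ADAMTS over TIMP ratio was 2.03 ± 0.140 and 1.95 ± 0.063, and that of all 54 members with the zinc motif over TIMPs was 3.53 ± 0.212 and 3.42 ± 0.104 (SD, n = 3 each). In these last comparisons the groups overlapped. The ratio of MMP2 to TIMP2 RPKM went from 0.0896 ± 0.0147 to 0.475 ± 0.0253, so MMP2 RNA stayed below that of TIMP2 in every library. TIMP1 does not enter these sums, and the ratios were not tested.

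**Figure D4:**
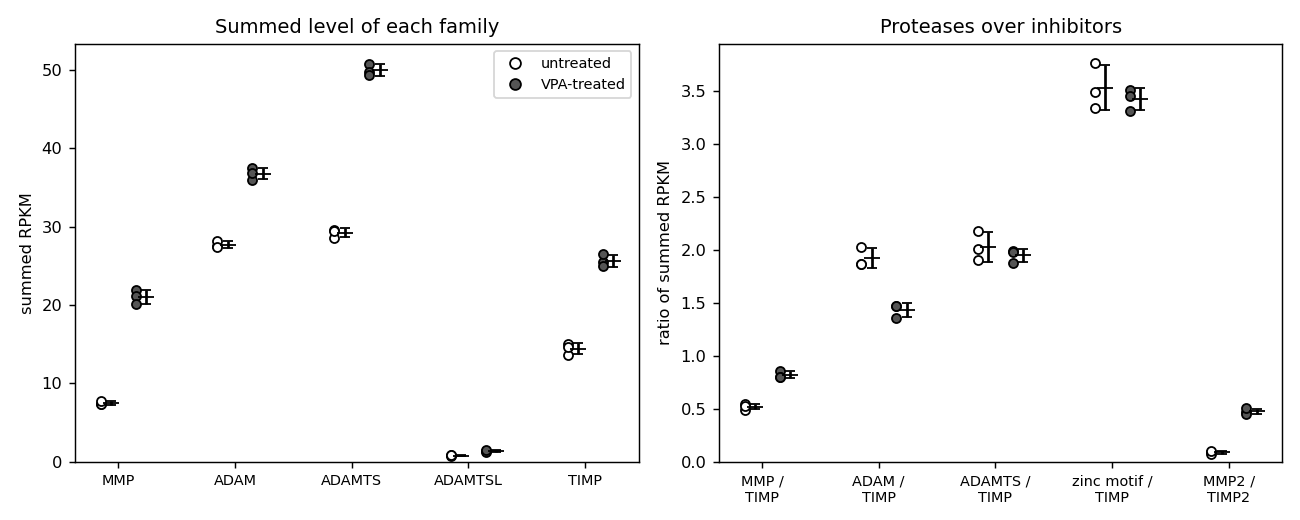
Left, summed RPKM of each family in each library; right, ratios of summed RPKM to the TIMP sum and the ratio of MMP2 to TIMP2, with open points for untreated and filled points for VPA-treated libraries and bars for the mean and SD (n = 3). The MMP ratio is higher after VPA, the ADAM ratio is lower, and the ratios for ADAMTS genes and for all zinc motif genes overlap between groups.

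The makeup of the MMP sum shifted toward MMP2. In untreated cells MMP15 gave 39.9% of the summed MMP RPKM, MMP17 20.2% and MMP2 9.21%. After VPA these were 31.6%, 21.4% and 30.5%, and MMP2 at 6.41 ± 0.216 RPKM stood beside MMP15 at 6.65 ± 0.484 (SD, n = 3 each), a difference smaller than the SD of MMP15. ADAMTS1, at 14.5 RPKM untreated and 23.8 after VPA, gave 28.5% and 27.1% of the sum over zinc motif genes, about the same in each group. TIMP2 and TIMP3 stood at 7.70 ± 0.442 and 6.68 ± 0.531 RPKM in untreated cells and at 13.5 ± 0.299 and 12.0 ± 0.633 after VPA.

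Promoter sequence was available from RefSeq (GRCh38.p14) for 44 of the 74 members, and it is shown, 250 bases up to the start site, for a member of each of the MMP, ADAM, ADAMTS and TIMP families that rose. Capitals mark the GC box GGGCGG, read on both strands with overlaps counted, a motif that Sp-family factors bind.
MMP15: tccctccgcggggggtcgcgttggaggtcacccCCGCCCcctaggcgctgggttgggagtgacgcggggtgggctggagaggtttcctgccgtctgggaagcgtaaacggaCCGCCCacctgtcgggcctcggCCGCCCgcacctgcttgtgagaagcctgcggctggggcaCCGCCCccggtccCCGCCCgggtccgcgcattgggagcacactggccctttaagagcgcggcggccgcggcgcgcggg
ADAM19: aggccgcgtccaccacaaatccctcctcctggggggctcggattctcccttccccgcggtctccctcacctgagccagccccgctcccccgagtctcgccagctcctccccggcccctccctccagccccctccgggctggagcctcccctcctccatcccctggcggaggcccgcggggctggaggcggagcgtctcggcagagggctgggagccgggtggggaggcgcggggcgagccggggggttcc
ADAMTS7: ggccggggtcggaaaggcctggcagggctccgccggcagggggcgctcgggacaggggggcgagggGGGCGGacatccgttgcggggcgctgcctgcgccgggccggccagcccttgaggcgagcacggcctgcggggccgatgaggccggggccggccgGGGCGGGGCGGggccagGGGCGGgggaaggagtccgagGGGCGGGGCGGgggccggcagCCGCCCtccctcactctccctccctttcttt
TIMP3: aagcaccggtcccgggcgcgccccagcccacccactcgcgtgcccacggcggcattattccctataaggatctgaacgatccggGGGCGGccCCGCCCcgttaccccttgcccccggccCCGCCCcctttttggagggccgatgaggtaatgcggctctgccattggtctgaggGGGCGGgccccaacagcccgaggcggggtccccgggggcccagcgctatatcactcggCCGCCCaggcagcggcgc
These lie at chr16:58025504-58025753 (plus strand, 5 GC boxes), chr5:157575776-157576025 (minus strand, 0), chr15:78811465-78811714 (minus strand, 7) and chr22:32801455-32801704 (plus strand, 5). In the 250 bases, a GC box was found in 30 of 44 member promoters (68.2%) against 42.3% of 27305 promoters in the reference. It was found in 5 of 12 MMP, 7 of 12 ADAM, 11 of 12 ADAMTS, 4 of 5 ADAMTSL and 3 of 3 TIMP promoters. Among tested members it was found in 8 of 11 that were up-regulated and in 17 of the 18 others, and among members not tested in 5 of 15. It was thus in 25 of 29 tested members, whichever their call. The AP-1 site TGACTCA, read on both strands and known from promoters of inducible MMPs, was found in 1 member promoter, that of MMP7, which had no count, or 2.27% against 4.16% of all promoters. A match or its absence concerns these windows alone.

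Other genes of the pathway were taken from lists of activators, partners, inhibitors and substrates. Of 8 activating convertases and plasminogen system genes, 7 were tested, 5 were higher and 1 was lower, where 32.9% and 30.0% of all tested genes were. PLAU, the urokinase that starts plasmin formation, had 15.5, 11.5 and 17.8 normalized counts against 68.0, 67.4 and 63.2, and rose by 2.14 on the log2 scale (adjusted p = 7.06e-09). FURIN, which removes the propeptide of membrane-type MMPs and ADAMs, was higher by 0.13 (adjusted p = 0.0243), PCSK5 was higher by 0.52 and PCSK6 was lower, at -0.46. Of 9 partners that traffic ADAM10 and ADAM17, 6 were higher, 1 was lower and none reached 2-fold, beside the same 32.9% and 30.0%. TSPAN33 and TSPAN15, tetraspanins that bind ADAM10, were higher by 0.75 and 0.72. RHBDF1 and RHBDF2, the iRhoms that carry ADAM17 to the surface, were higher by 0.47 and 0.25, and RHBDF2 had the more counts.

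Of 9 inhibitors other than TIMPs, 7 were tested, 4 were higher, 3 of them up-regulated, and none was lower. Over all tested genes, 32.9% were higher, 12.0% up-regulated and 30.0% lower. SPOCK1 entered the test through its VPA-treated libraries, and over the 6 genes with at least 10 counts in every untreated library 3 were higher and 2 up-regulated. SPOCK1, a testican proteoglycan, averaged 12.5 ± 5.55 normalized counts untreated and 90.2 ± 10.8 with VPA (SD, n = 3 each), and rose by 2.84 on the log2 scale (adjusted p = 3.39e-10), SPOCK3 by 1.33 and TFPI2 by 1.01. CST3, a cathepsin inhibitor and the most abundant of the list, had a difference of 0.03 (adjusted p = 0.746). LRP1, the endocytic receptor that clears MMPs, ADAMTSs and TIMP3, had 1212, 1177 and 1128 normalized counts against 3113, 2913 and 2851, and rose by 1.34 on the log2 scale (adjusted p = 1.10e-15). BSG, known to induce MMPs, had a difference of 0.00 (95% interval -0.08 to 0.08, adjusted p = 0.977).

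Most matrix substrates of these proteases were higher after VPA. Of 17 matrix substrates, 15 were tested, 14 were higher, 9 of them up-regulated, and none was lower, where 32.9% of all tested genes were higher, 12.0% up-regulated and 30.0% lower. The median log2 fold change was 1.27. BCAN, NCAN and VWF entered the test through their VPA-treated libraries, and over the 12 genes with at least 10 counts in every untreated library 11 were higher, 6 of them up-regulated, with a median of 0.70. ACAN, the aggrecan core protein, had 19.7, 16.7 and 11.5 normalized counts against 177, 147 and 160, and rose by 3.33 on the log2 scale (adjusted p = 4.20e-13). BCAN (brevican) and VWF rose by 4.51 and 3.79 from about 1 normalized count, and FBN2, the most abundant of the list over all 6 libraries, was higher by 0.13. VCAN (versican) was not called, at -0.01 (95% interval -0.09 to 0.06). The fibroblast markers DCN and LUM, themselves matrix proteoglycans, rose by 5.19 and 3.25 on the log2 scale in the same libraries. DCN had 0, 0 and 3.15 normalized counts in untreated libraries and entered the test through its VPA-treated libraries. The part of such markers in the matrix result was not tested. Of 22 shed membrane substrates, 18 were tested, 12 were higher, 8 of them up-regulated, and 4 were lower, beside the same 32.9%, 12.0% and 30.0%. Their median log2 fold change was 0.57. Over the 16 with at least 10 counts in every untreated library, 10 were higher, 6 of them up-regulated, and 4 were lower, with a median of 0.25. CDH1 (E-cadherin) and TGFA rose by 1.92 and 1.80. AREG went from 4.14, 3.14 and 7.35 normalized counts to 17.2, 18.3 and 15.3, a rise of 1.77, and entered the test through its VPA-treated libraries. APLP2, the most abundant of the list, was lower, at -0.30 (adjusted p = 7.55e-06).

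**Figure D5:**
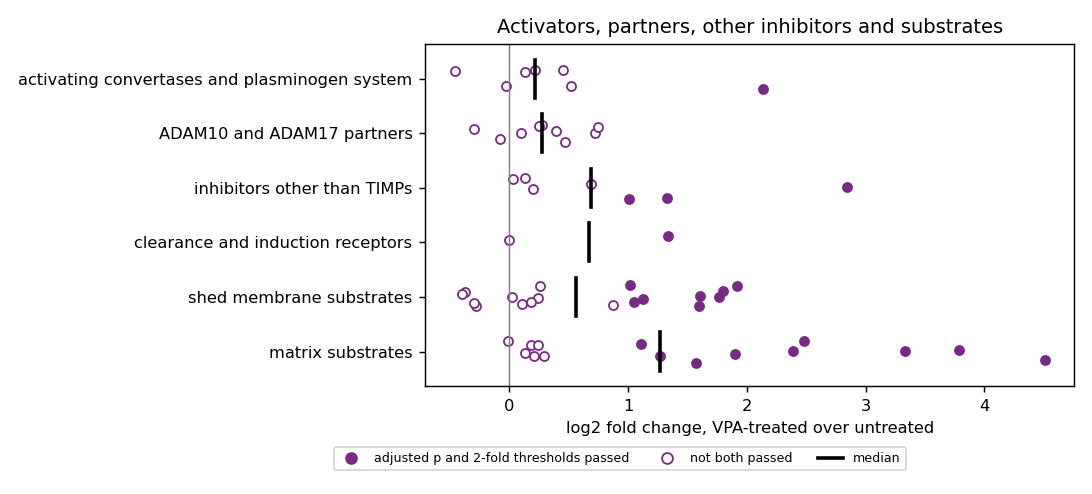
Log2 fold change, VPA-treated over untreated, of each tested gene (points, spread vertically for legibility) in 6 lists of other pathway genes, with the list median as a bar. Matrix substrates have the highest median at 1.27 (0.70 over those with at least 10 counts in every untreated library), and convertases with the plasminogen system the lowest at 0.22.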

How the data were processed

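Gene counts were deposited by the authors, 1 file per library, from strand-specific mRNA libraries of TRIzol RNA read on DNBSEQ. Per the methods, reads were cleaned with SOAPnuke, aligned to hg38 with STAR and counted with htseq-count; the submitters' processing notes name STAR 2.7.10b and HTSeq 2.0.1, and the annotation and strand setting are not given in the sources used here. The counts are whole numbers, not normalized. Summary lines stayed out of all totals (no feature 6.80% to 7.69%, ambiguous 1.97% to 2.10%, not unique 2.81% to 2.92%).

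Counts were fitted with edgeR 4.0.16 in R 4.3.3 (quasi-likelihood F test, two-sided, robust, TMM scaling, filterByExpr with a count minimum of 10, prior count 0.125) over all 15298 genes that passed. Up- or down-regulated means an adjusted p (Benjamini-Hochberg) under 0.05 together with a 2-fold change, as the study set them; higher or lower means the adjusted p alone. SEs were derived from the log2 fold change and the square root of F, and 95% intervals from the SE. Normalized counts are TMM-scaled to the mean library. RPKM used GENCODE 44 merged exon lengths. The biological coefficient of variation was 3.83%. Replicates differed beyond counting noise (chi-square per gene 1.62 to 4.80), so none was counted as a repeat. The fit was tested on simulated counts. DESeq2 1.42.0, other scalings, filters and prior counts, a replicate block and each library left out were alternatives.

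Members named with values were those called, those whose mean normalized count reached 500 and every TIMP; other members, and from each list of other genes the up to 3 past the adjusted p with the largest change plus the most abundant, are named for their role, some after their values were seen. Members and lists were chosen with earlier results of these data known.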

Additional observations from a re-analysis of the deposited data

How the results depend on the processing

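The 15 up-regulated members stayed between 10 and 21, and the 30 higher members between 27 and 36, over the alternatives named here. Up-regulated members were 14 with DESeq2 or its size factors, 16 with no filter, 12 with a prior count of 2, 12 to 15 with each library left out, 10 where every library needed at least 10 counts (34 tested) or a change had to exceed 2-fold beyond error, and 21 under scaling by ribosomal protein genes, where the median log2 fold change of all genes was 0.278 (0.137 by library totals and 0.006 with TMM). Down-regulated members were 0 and lower members 0 with at least 10 counts in every library, since MMP25 then leaves the test; down-regulated members were also 0 where a change had to exceed 2-fold beyond error. Lower members were 2 with DESeq2 size factors and with the replicate block, through ADAM17. The median log2 fold change of MMP, ADAM and ADAMTS genes was 0.75 by upper quartile, 0.82 by library totals and 0.96 by ribosomal protein genes, and that of the TIMPs 0.90, 0.96 and 1.10 and 0.78 to 0.86 with each library left out. ADAM9 reversed to 0.01, 0.07 and 0.21 by upper quartile, library totals and ribosomal protein genes, and ADAM17 to 0.02 and 0.16 by library totals and ribosomal protein genes. Of 394 comparisons over 25 named genes, 20 calls were lost and 2 gained (TIMP2 and TIMP3 by ribosomal protein genes). Same-numbered libraries deviated together with r of 0.329, 0.0911 and 0.245, so the numbers were not taken as pairs, though each library correlated best with its own number; with the replicate block 15 members were up-regulated and 32 higher. Low counts limit ADAM12, ADAMTS4, ADAMTS14, MMP24 and MMP25.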
